A study of Mus musculus with 6 samples.

Results

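Glycolysis, the pathway that splits glucose into pyruvate and lactate, was followed through 10 genes: the hypoxia-inducible factor gene Hif1a, the glucose carrier gene Slc2a1, the lactate exporter gene Slc16a3, and the enzyme genes Hk1, Hk2, Pfkp, Pfkfb3, Pgk1, Eno1 and Ldha. They were taken by name from the 27361 gene names with a value on every array, and each gene was read from its probe with the highest mean signal. All 10 were well above background on all 6 arrays, as were 15877 of the 19044 genes tested, so no filter on dim probes removed or selected any of them. Expression was measured with 1-colour Agilent arrays in mouse bone marrow-derived macrophages of strain C57BL/6, with 1 array for each combination of genotype and polarization state. KO cells were LysMcre FoxO1 Fl/Fl, in which Cre recombinase, made from the lysozyme M gene of myeloid cells, acts on floxed FoxO1 alleles. WT cells were FoxO1 Fl/Fl, which carry the same floxed alleles and no Cre. Marrow was cultured for 7 days with 10% L929 medium, which brings the growth factor that macrophages need. M1 cells then received 100 ng/ml lipopolysaccharide (LPS) and 20 ng/ml interferon-gamma, M2 cells 10 ng/ml each of the interleukins IL-4 and IL-13, both for 24 hours, and M0 cells were left without either. Since only KO cells carried Cre, effects of Cre and of FoxO1 loss cannot be told apart, and the labels leave unsaid if each of the 6 samples had its own animal.

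In macrophages exposed to LPS, glycolysis is known to supply energy and building blocks for the inflammatory response, while IL-4 is known more for fatty acid oxidation and mitochondrial respiration. HIF-1 is a pair of proteins, the regulated subunit encoded by Hif1a and its constant partner encoded by Arnt. It binds short DNA elements with the core ACGTG or GCGTG and is known to act on many genes of glycolysis. The HIF-1 alpha protein is controlled largely by its breakdown, which an mRNA measurement does not show.

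Because most of the 10 genes rose together in M1 cells, their promoters are shown first. RefSeq promoter windows (GRCm38.p6, from 250 bases before to 50 bases after the transcription start) were found for all 10 genes, 15 windows in all. The letters ACGTG, searched on both strands, stood in 9 of these 15 windows and in at least 1 window of 8 of the 10 genes, all but Pfkp and Eno1. Over all 32851 windows of the same length 19.6% held them, and over 27025 gene symbols 21.8% had a window with them. The palindrome CACGTG, which contains ACGTG and is the E-box known from Myc and related factors, stood in a window of 3 genes (Hif1a, Pfkfb3 and Ldha), against 8.09% of symbols. ACGTG outside a CACGTG was found for 8 genes, against 15.3% of symbols. GCGTG was found for 6 of the 10, against 35.2%. A match is a description of letters and not of a bound site. The windows below are those of Slc16a3, Pfkfb3, Slc2a1 and Pgk1, which had the largest M1 differences among genes with an ACGTG match, and of Ldha, which had the most. Pfkfb3 and Ldha each have another window, not shown. The other Pfkfb3 window holds 1 ACGTG, at -60 and outside a CACGTG, and the other Ldha window holds 0. The window of Pfkp, which had no ACGTG and did not pass in M1 cells, is shown too. It holds 4 GCGTG, which are not marked. Eno1, not shown, also had no ACGTG and did pass in M1 cells, so these windows do not tie a match to a rise. They are written 5′ to 3′ on the gene's strand, with ACGTG of either strand in capitals (CACGT where it lies on the other strand).
Slc16a3, chr11:120948817-120949116, plus strand: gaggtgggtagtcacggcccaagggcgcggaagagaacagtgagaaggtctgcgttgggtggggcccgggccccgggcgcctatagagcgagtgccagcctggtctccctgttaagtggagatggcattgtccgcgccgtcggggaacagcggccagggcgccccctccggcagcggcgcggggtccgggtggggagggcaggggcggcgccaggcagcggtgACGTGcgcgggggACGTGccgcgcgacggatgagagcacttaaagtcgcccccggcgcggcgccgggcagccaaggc
Pfkfb3, chr2:11502041-11502340, minus strand: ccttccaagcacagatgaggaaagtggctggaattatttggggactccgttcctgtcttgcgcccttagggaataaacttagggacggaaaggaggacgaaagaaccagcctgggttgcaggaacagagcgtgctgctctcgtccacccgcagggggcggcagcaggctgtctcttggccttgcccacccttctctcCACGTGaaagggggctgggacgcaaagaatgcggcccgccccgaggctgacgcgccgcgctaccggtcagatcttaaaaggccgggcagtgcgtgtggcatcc
Slc2a1, chr4:119108495-119108794, plus strand: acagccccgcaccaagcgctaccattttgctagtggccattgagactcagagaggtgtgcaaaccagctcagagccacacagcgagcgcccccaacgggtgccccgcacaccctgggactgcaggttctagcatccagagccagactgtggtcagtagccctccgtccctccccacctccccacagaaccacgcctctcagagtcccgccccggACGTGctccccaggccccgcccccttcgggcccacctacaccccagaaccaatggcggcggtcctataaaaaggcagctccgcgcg
Pgk1, chrX:106186850-106187149, plus strand: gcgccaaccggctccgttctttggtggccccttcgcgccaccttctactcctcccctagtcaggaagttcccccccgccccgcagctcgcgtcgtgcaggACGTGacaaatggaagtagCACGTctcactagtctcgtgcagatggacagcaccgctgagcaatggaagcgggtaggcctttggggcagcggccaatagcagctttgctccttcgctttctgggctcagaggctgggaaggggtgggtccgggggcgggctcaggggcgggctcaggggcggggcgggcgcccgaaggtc
Ldha, chr7:46845554-46845853, plus strand: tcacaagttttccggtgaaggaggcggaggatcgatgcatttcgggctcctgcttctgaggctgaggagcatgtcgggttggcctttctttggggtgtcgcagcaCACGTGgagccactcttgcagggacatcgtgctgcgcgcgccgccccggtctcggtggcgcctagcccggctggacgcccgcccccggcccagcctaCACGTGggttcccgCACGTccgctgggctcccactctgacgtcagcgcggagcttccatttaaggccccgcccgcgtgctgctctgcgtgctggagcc
Pfkp, chr13:6648722-6649021, minus strand: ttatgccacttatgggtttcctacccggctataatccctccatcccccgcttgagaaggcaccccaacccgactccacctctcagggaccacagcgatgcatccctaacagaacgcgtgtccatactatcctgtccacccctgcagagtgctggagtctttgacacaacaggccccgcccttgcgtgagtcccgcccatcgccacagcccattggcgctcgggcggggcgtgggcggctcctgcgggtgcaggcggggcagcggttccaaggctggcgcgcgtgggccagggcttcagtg
In the Slc16a3 window the matches began at -27 and -14 from the start, in that of Slc2a1 at -36, and in that of Pgk1 at -150 and -131. Of the 5 Ldha matches 4 belong to its pair of CACGTG palindromes, since each palindrome reads as ACGTG on both strands.

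Levels are given as the log2 processed signal minus the log2 of the array's 75th percentile, which lay between 532 and 627 signal units, so a level of 0 equals that percentile. Foxo1, the targeted gene, was at -1.42, -1.82 and -1.15 in KO M0, M1 and M2 cells and at 1.50, 0.96 and 1.50 in WT M0, M1 and M2 cells. The KO levels lay below the WT levels in every state, although the sources do not place this probe relative to the deleted part of the gene. All 9 macrophage markers were well above background on all arrays, and 7 of 7 M1 check genes rose in M1 against M0 (limma, adjusted p under 0.05). Of 7 M2 check genes 0 passed in M2 against M0, although all 7 differences were positive with a median of 6.22. Liver markers were well above background for 15 of 15 genes on the WT M0 array and 13 of 15 on KO M1, against 5 to 8 on the others. Summed on a linear scale these markers reached 38.1 on the WT M0 array, 1.86 on that of KO M1 and 0.308 to 0.383 elsewhere. Granulocyte markers summed to 15.1, 9.21 and 6.74 in KO M0, M1 and M2 cells and to 82.6, 14.3 and 26.8 in WT M0, M1 and M2 cells. Stromal markers summed to 6.50, 5.23 and 4.48 in KO and to 17.8, 7.88 and 9.56 in WT cells, in the same order. On such bulk RNA, fewer cells of a type and less RNA per cell cannot be told apart. WT M0 and WT M1 shared slide 1, and the other 4 arrays shared slide 2, so each genotype's M1 minus M0 difference lies within a slide.

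The first comparison asks how the genes respond to LPS and interferon-gamma. In M1 against M0 cells 9 of the 10 genes rose and 0 fell in limma at an adjusted p under 0.05, where 11.6% of the 19044 genes tested rose and 14% fell. The exception was Pfkp. The 10 genes were chosen with earlier results of these data known, so their contrast with all genes is not independent of that choice. The median difference of the 10 genes was 1.88, against 0.03 for all tested genes. For all 10 genes both M1 arrays lay above both M0 arrays, as for 30.4% of all genes, and the difference was at least 2-fold for 9 genes within KO and 8 within WT, against 13.3% and 11.7% of all genes. The adjusted p-values rest on 2 arrays against 2, one KO and one WT in each state, and their spread is the departure of the arrays from additive effects of state and genotype. Without any 1 of the 4 M0 and M1 arrays limma called 0 of the 10 genes and 0 of all genes, while 8 to 10 of the 10 and 4270 to 5490 genes still had an unadjusted p under 0.05. An alternative chosen after seeing the data left out both arrays that carried liver markers, which leaves no spread for a test. There 7 of the 10 were at least 2-fold higher in M1, against 11.6% of all genes. With all arrays the mean difference reached 2-fold for 9 of the 10 and 11.7% of all genes. That alternative sets WT M1 on slide 1 against KO M0 on slide 2, with genotype adjusted by the M2 pair alone. It therefore crosses genotype and slide.

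Hif1a itself had a moderate difference. In KO cells Hif1a stood at 1.94 in M0, 2.85 in M1 and 1.88 in M2, and in WT cells at 1.84, 3.23 and 1.76 in the same states. Both M1 arrays lay above the other 4, and the mean M1 minus M0 difference was 1.15 ± 0.21 (SE), a 2.23-fold rise (adjusted p = 0.0305, limma). With normexp background correction the adjusted p was 0.0601. It was the only gene of the 10 whose difference was smaller in KO (0.92) than in WT cells (1.39).

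The genes for carriage of glucose and lactate across the plasma membrane rose further. Slc2a1 encodes GLUT1, the main carrier that brings glucose into many cells. In KO cells Slc2a1 stood at 2.70, 5.25 and 3.25 in M0, M1 and M2, and in WT cells at 2.21, 4.51 and 3.24. Its mean M1 minus M0 difference was 2.42 ± 0.24 (SE), a 5.36-fold rise (adjusted p = 0.0112, limma). Slc16a3 encodes MCT4, which exports lactate with protons from strongly glycolytic cells. In KO cells Slc16a3 stood at 2.65, 6.23 and 2.55, and in WT cells at 2.44, 5.68 and 2.16. The M0 and M2 levels were close in both genotypes, and M1 stood 3.41 ± 0.17 (SE) above M0, the largest mean difference of the 10 genes, a 10.6-fold rise (adjusted p = 0.00682, limma).

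Hexokinases trap glucose in the cell by phosphorylation, and Hk1 and Hk2 encode the forms that can sit on mitochondria. In KO cells Hk1 stood at 2.95, 4.63 and 2.63 in M0, M1 and M2, and in WT cells at 2.75, 4.24 and 2.95. The M1 arrays were the highest pair, with a rise of 1.58 ± 0.24 (SE), or 2.99-fold (adjusted p = 0.0221, limma). In KO cells Hk2 stood at 0.80, 2.59 and 1.88, and in WT cells at 1.15, 2.48 and 1.85. Here M2 lay between M0 and M1 in both genotypes, and the M1 rise was 1.56 ± 0.19 (SE), or 2.95-fold (adjusted p = 0.0160, limma).

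The next committed step is that of phosphofructokinase. Pfkp encodes its platelet-type isoform, and Pfkfb3 an enzyme that makes fructose 2,6-bisphosphate, the strongest known activator of phosphofructokinase. In KO cells Pfkp stood at 0.67, 2.26 and 2.07 in M0, M1 and M2, and in WT cells at 0.22, 0.94 and 1.98. The WT M1 array was less than 2-fold above WT M0, and the mean difference of 1.15 ± 0.35 (SE) had an adjusted p of 0.0909 in limma. With median centring that adjusted p was 0.0240 and with an intensity trend in the variance prior 0.0268. In KO cells Pfkfb3 stood at 2.72, 6.04 and 1.93, and in WT cells at 3.31, 6.34 and 2.05. Pfkfb3 was the only gene of the 10 with M2 below M0 by more than 0.5 in both genotypes, and its M1 rise was 3.18 ± 0.19 (SE), or 9.06-fold (adjusted p = 0.00709, limma).

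The lower part of the pathway yields ATP, pyruvate and lactate. Pgk1 encodes phosphoglycerate kinase, which makes ATP. In KO cells Pgk1 stood at 5.23, 7.58 and 5.81 in M0, M1 and M2, and in WT cells at 5.06, 7.16 and 5.96, with an M1 rise of 2.23 ± 0.21 (SE), or 4.68-fold (adjusted p = 0.0105, limma). Eno1 encodes alpha-enolase, which forms phosphoenolpyruvate. In KO cells Eno1 stood at 1.36, 3.77 and 2.25, and in WT cells at 1.65, 3.60 and 2.29, with an M1 rise of 2.18 ± 0.19 (SE), or 4.54-fold (adjusted p = 0.00962, limma). Ldha encodes the lactate dehydrogenase subunit that favours conversion of pyruvate to lactate. In KO cells Ldha stood at 6.20, 7.47 and 6.81, and in WT cells at 6.01, 6.66 and 6.48. For all 3 genes the order was M1, M2, M0 in both genotypes. The Ldha rise of 0.96 ± 0.22 (SE), or 1.95-fold, had an adjusted p of 0.0499 in limma. That call ended with quantile normalization (adjusted p = 0.104), the authors' deposited table (0.105), normexp correction (0.170), no filter on dim probes (0.0762), the slide as a block (0.0616) and no genotype term (0.0968).

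**Figure D1:**
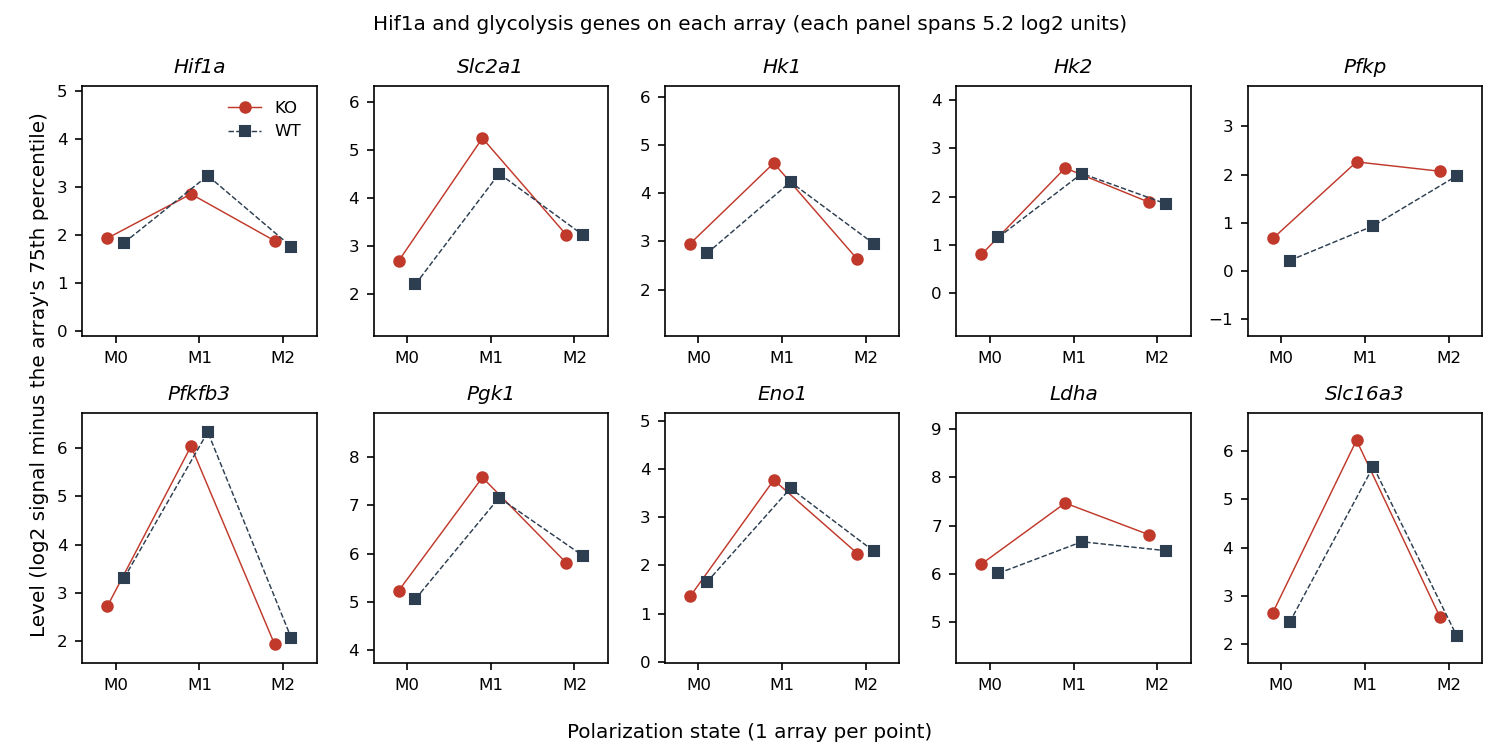
Level of each gene (y axis, log2 signal minus the array's 75th percentile) in M0, M1 and M2 (x axis), with KO as circles and WT as squares, 1 array per point. In 8 of the 10 panels both M1 points lie above the other 4, and in Pfkp and Ldha they do not.

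**Figure D2:**
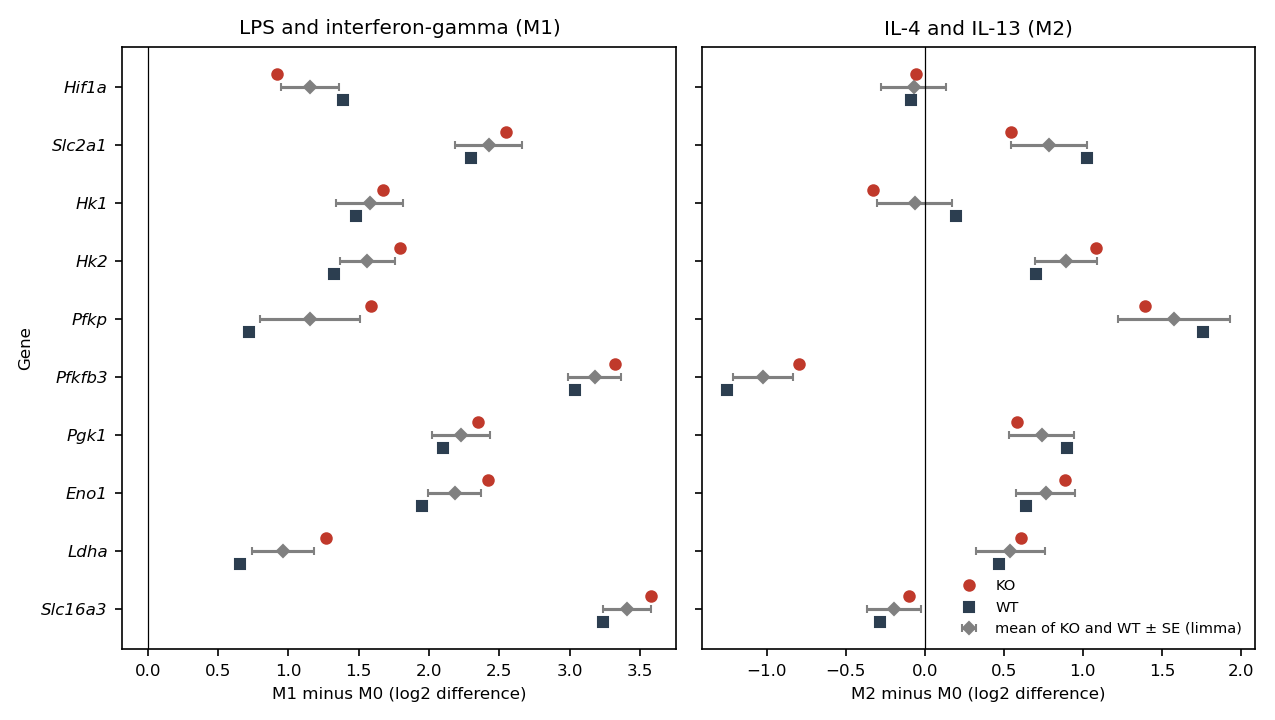
Difference of M1 from M0 (left) and of M2 from M0 (right), x axes in log2 units, for KO (circles), WT (squares) and their mean with the SE of limma (diamonds). All M1 differences lie right of 0, from 0.66 for Ldha in WT to 3.58 for Slc16a3 in KO, while the M2 differences lie on both sides.

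The response to M1 stimulation was larger in KO than in WT cells for 9 of the 10 genes, where 51.5% of all genes tested were larger in KO. The excess of KO over WT ranged from 0.19 (Hk1) to 0.87 (Pfkp), and none reached 2-fold, as 8.5% of all genes did with KO larger and 2.61% with WT larger. These are values of single arrays with no replicate check, and the count was 5 of 10 after median centring and 8 of 10 after quantile normalization, where 27.2% and 40.7% of all genes were larger in KO. The WT M0 and KO M1 arrays, which enter this difference, are those with liver markers, and their part in it was not tested.

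Several genes are covered by more than 1 probe, and 20 of the 21 probes of the 10 genes were well above background on all arrays. Over those 20 probes M1 was above M0 for all 20 in KO cells and for 19 in WT cells, the exception being a Pfkp probe at -0.23. The probes of Pfkfb3 gave 3.32, 3.66 and 4.05 in KO cells and 3.03, 3.35 and 3.71 in WT cells, and the 5 measured probes of Hk1 gave 1.35 to 2.15 in KO and 0.88 to 1.61 in WT cells. Probes of Ldha and Pfkp also disagreed in size. The brightest Ldha probe, on mm9 chromosome 7 from 54110889 to 54110948, differed by 1.26 in KO and 0.66 in WT cells, and the other, from 54109426 to 54110355, by 2.02 and 1.75. The span of that second probe is 930 bases for its 60 bases of sequence, that is, across an exon junction. The brightest Pfkp probe, from 6581718 to 6583872 on chromosome 13, gave 1.59 in KO and 0.72 in WT cells, against 0.42 and 0.12 for the probe from 6588296 to 6588355 and 0.28 and -0.23 for that from 6579124 to 6579183. The mean over the Pfkp probes was 0.48 for M1 minus M0 (adjusted p = 0.297, limma), so its M1 difference rests on the brightest probe. In M2 cells all 3 Pfkp probes lay above M0, by 0.60 to 1.42 in KO and 1.18 to 1.76 in WT cells. The files do not place probes in exons or untranslated regions. The probes shown here are those of Ldha, Pfkp, Pfkfb3 and Eno1 whose mm9 span exceeds their length, which read spliced RNA.
Ldha probe A_51_P364146, chr7:54109426-54110355, plus strand: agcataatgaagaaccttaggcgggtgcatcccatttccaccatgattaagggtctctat
Pfkp probe A_51_P378856, chr13:6581718-6583872, minus strand: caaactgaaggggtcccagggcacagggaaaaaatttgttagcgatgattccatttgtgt
Pfkfb3 probe A_52_P138126, chr2:11411973-11414235, minus strand: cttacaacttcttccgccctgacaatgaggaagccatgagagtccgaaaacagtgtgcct
Pfkfb3 probe A_52_P362917, chr2:11404189-11405602, minus strand: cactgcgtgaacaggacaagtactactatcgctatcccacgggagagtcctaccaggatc
Eno1 probe A_52_P349939, chr4:149618134-149618359, plus strand: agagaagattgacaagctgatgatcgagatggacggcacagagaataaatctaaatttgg
The brightest probes of the other genes lie at chr12:75047269-75047329 (Hif1a), chr4:118809864-118809923 (Slc2a1), chr10:61731916-61731975 (Hk1), chr6:82675056-82675115 (Hk2), chr2:11393579-11393638 (Pfkfb3) and chr11:120820023-120820082 (Slc16a3). Both Pgk1 probes, which overlap by 38 bases and gave 2.35 and 2.42 in KO and 2.10 and 2.09 in WT cells, are placed by the files on chromosome 3 (the brighter at chr3:57906703-57906762), while RefSeq has Pgk1 on X and the pseudogene Pgk1-ps3 on 3. RefSeq lists 3 pseudogenes named after Pgk1 and 3 named after Ldha, and the protein-coding copy Eno1b for Eno1, so signals of such copies cannot be told apart from those of the genes.

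**Figure D3:**
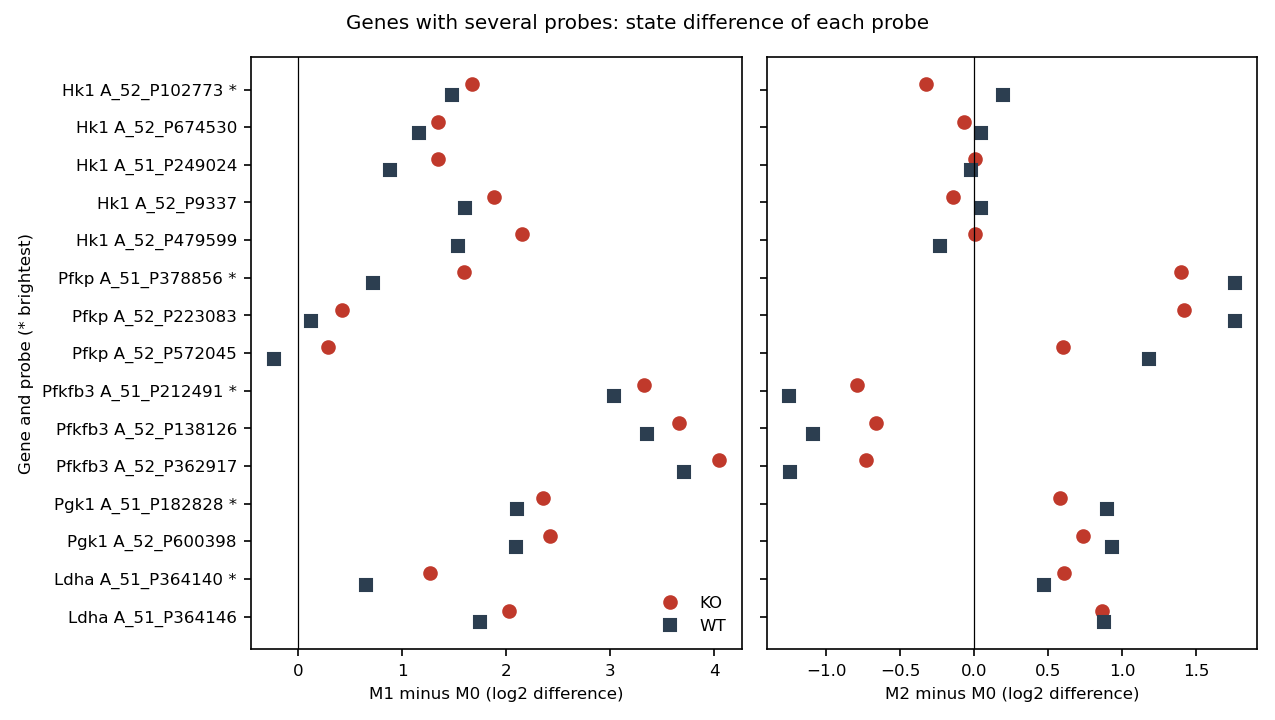
State difference of each probe well above background for the 5 genes with several probes (rows), with M1 minus M0 on the left and M2 minus M0 on the right (x axes in log2 units), KO as circles and WT as squares, the brightest probe starred. The Pgk1 probes lie close together in M1, while those of the other genes spread, and 1 Pfkp probe lies left of 0 in WT.

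The second comparison asks for the response to IL-4 and IL-13. In M2 against M0 cells 0 of the 10 genes passed in limma, where 0.063% of all genes rose and 0.021% fell (16 genes). Of the 7 M2 check genes 0 passed here too, with a median of 6.22, so a count of 0 does not show that a gene is unchanged. At an unadjusted p under 0.05 there were 5 higher and 1 lower among the 10, beside 3645 of all genes. The median difference was 0.64, against 0.08 for all genes, and both M2 arrays lay above both M0 arrays for 6 genes and below them for 1, against 31.6% and 21.9% of all genes. The values were largest for Pfkp (1.58 ± 0.35, SE; adjusted p = 0.156) and Hk2 (0.89 ± 0.19; adjusted p = 0.153). Slc2a1 followed with 0.79 ± 0.24, Eno1 with 0.76 ± 0.19, Pgk1 with 0.74 ± 0.21 and Ldha with 0.54 ± 0.22. Pfkfb3 lay lower by -1.02 ± 0.19 (adjusted p = 0.128), with -0.79 in KO and -1.25 in WT cells. Hif1a (-0.07 ± 0.21), Hk1 (-0.06 ± 0.24) and Slc16a3 (-0.19 ± 0.17) differed by no more than about their SE. With an intensity trend in limma's variance prior Hk2, Pfkp and Eno1 passed as higher and Pfkfb3 as lower, at adjusted p of 0.0338, 0.0371, 0.0436 and 0.0183, when 1083 genes passed in all. In WT cells the M2 and M0 arrays lay on different slides, so the KO differences are the ones within a slide. There Pfkp (1.39) and Hk2 (1.09) were at least 2-fold above M0 and 0 genes as far below, against 4.78% and 4.43% of all genes. In WT cells Pfkp (1.76) and Slc2a1 (1.03) were at least 2-fold above M0 and Pfkfb3 as far below, against 19.1% and 8.34%.

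Set directly against M2, M1 cells were higher for 7 of the 10 genes and lower for 0 in limma, where 11.6% of all genes were higher and 13.8% lower. Pfkfb3 differed most, by 4.20 ± 0.19 (SE; adjusted p = 0.00547), or 18.4-fold, and Slc16a3 by 3.60 ± 0.17 (adjusted p = 0.00547), or 12.1-fold. Hk1, Slc2a1, Pgk1, Eno1 and Hif1a were higher by 1.64, 1.64, 1.49, 1.42 and 1.22, at adjusted p from 0.0171 to 0.0268. Those that did not pass were Hk2 (0.67; adjusted p = 0.0824), Ldha (0.42; adjusted p = 0.239) and Pfkp (-0.42; adjusted p = 0.428). The M1 minus M2 difference of Pfkp was 0.19 in KO and -1.04 in WT cells on its brightest probe. Its other probes gave -0.995 and -0.31 in KO and -1.64 and -1.41 in WT cells, so M1 lay below M2 in both genotypes there. With normexp correction 3 of the 10 passed. In WT cells M1 and M2 lay on different slides, and with the slide as a block 5 passed, the calls of Eno1 (adjusted p = 0.0638) and Hif1a (adjusted p = 0.0913) having ended. Without the KO M1 or WT M1 array limma called 0 of them and 0 of all genes. At an unadjusted p under 0.05, 7 were higher and 1 lower without KO M1, beside 5543 of all genes, and 7 higher and 0 lower without WT M1, beside 5283. Without KO M0 or WT M0 limma called 2 of the 10 and 1253 of all genes. For 8 of the 10 genes, all but Pfkp and Ldha, both M1 arrays were above all 4 others, as for 22.5% of all genes. On the less bright Ldha probe both M1 arrays were also above all 4 others. Its M1 minus M2 difference was 1.16 in KO and 0.87 in WT cells.

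The comparison of the genotypes asks whether macrophages without FoxO1 differ in these genes. In KO against WT over all states 0 of the 10 genes passed in limma, where 0% of all 19044 genes did (lowest adjusted p = 0.305). Foxo1, the targeted gene, did not pass either, with a difference of -2.78 ± 0.13 (SE; adjusted p = 0.305, limma). A count of 0 here therefore does not show that the genotypes are alike. Among the 10 the number with an unadjusted p under 0.05 was 0, and it was 2157 among all genes. With an intensity trend 32 genes passed and 0 of the 10 did. The median of the 10 was 0.12, against 0.09 for all genes, and for 0 of them did the 3 KO arrays lie wholly above or below the 3 WT arrays, against 4.06% and 1.48% of all genes. The mean difference ranged from -0.34 ± 0.15 (SE) for Pfkfb3 to 0.63 ± 0.29 for Pfkp. For each of the 10 genes the state means spanned more than the genotype means. There are more states than genotypes, which by itself favours a wider span of state means, and the share over all genes was not counted.

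Within single states the largest KO minus WT values were in M1 cells. Pfkp stood higher in KO cells by 0.46 in M0 and 1.33 in M1, and by 0.093 in M2 cells. Its M1 value was the only 1 of the 10 genes' values to reach 2-fold, where 14% of all genes were higher and 1.71% lower by that much in M1, 9.93% and 4.25% in M0 and 3.36% and 4.9% in M2. Its other probes gave 0.64 and 0.62 in M1. Ldha differed by 0.19, 0.80 and 0.33 in M0, M1 and M2, Slc2a1 by 0.49, 0.74 and 0.0077, and Slc16a3 by 0.21, 0.55 and 0.39. Pfkfb3 went the other way, with -0.59, -0.30 and -0.13. These 4 higher genes and 1 lower gene had the same sign in all 3 states, as did 22% and 15.1% of all genes. With normexp correction the sign changed for Ldha and Slc16a3 in M0 and for Slc2a1 and Pfkp in M2, and only Pfkfb3 of the 5 kept its sign in every state and under all 5 other scalings and probe rules. The other 5 genes had both signs among the states. In M0, M1 and M2 Hif1a had 0.093, -0.38 and 0.12, Hk1 0.20, 0.39 and -0.32, Hk2 -0.35, 0.11 and 0.031, Pgk1 0.17, 0.42 and -0.15, and Eno1 -0.30, 0.17 and -0.043. In M1 8 of the 10 were positive with a median of 0.41, where 62.1% of all genes were positive with a median of 0.13; after median centring the medians were 0.09 for the 10 and -0.19 for all genes. Only the M2 pair shares a slide, and there all 10 values lay between -0.32 and 0.39. In M0 and M1 slide and genotype cannot be told apart. All 13 tested liver markers were at least 2-fold higher in KO than in WT M1 cells (median 2.52) and at least 2-fold lower in KO than in WT M0 cells (median -6.35), and their part in these differences was not tested.

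**Figure D4:**
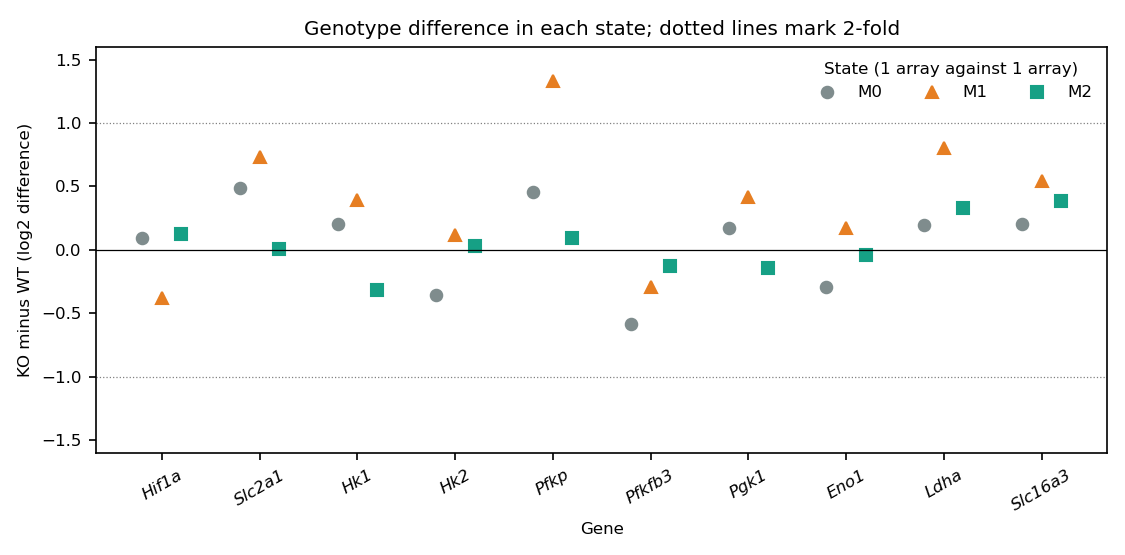
KO minus WT difference of each gene (y axis, log2) within M0 (circles), M1 (triangles) and M2 (squares), 1 array against 1 array, with dotted lines at 2-fold. Only Pfkp in M1 lies beyond 2-fold, and the M2 points lie between -0.32 and 0.39.

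Of 18 other glycolytic enzyme genes tested, 7 rose and 4 fell in M1 against M0 in limma, with a median of 0.35, where 11.6% of all genes rose and 14% fell. Those that rose included Pfkl, the liver-type phosphofructokinase gene (2.62 ± 0.21, SE), the hexokinase gene Hk3 (2.28 ± 0.20), the triose phosphate isomerase gene Tpi1 (2.07 ± 0.19), Gapdh (1.77 ± 0.18) and the pyruvate kinase gene Pkm (1.71 ± 0.20), at adjusted p from 0.00881 to 0.0143. The aldolase gene Aldoa (0.70 ± 0.18; adjusted p = 0.0603) did not pass. Those that fell included Ldhb, the lactate dehydrogenase subunit that favours pyruvate (-2.47 ± 0.27; adjusted p = 0.0126). In KO cells Ldhb stood at 1.95, -0.46 and 2.46 in M0, M1 and M2, and in WT cells at 2.19, -0.35 and 3.38, so that both M1 arrays lay below the other 4. Pfkfb4 and Pfkfb2, relatives of Pfkfb3, fell by 1.26 and 0.95 (adjusted p = 0.0165 and 0.0315). The last, Aldoc, fell by 1.27 (adjusted p = 0.0417) and was named after its value was seen. The Pfkfb2 call ended in 6 of 10 alternative settings and the Aldoc call in 4. With normexp correction 5 of the 18 rose and 1 fell, and the calls of Pkm and Pfkfb4 ended too.

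Among 10 other tested glucose and lactate carrier genes 1 rose and 3 fell in M1 against M0, with a median of -0.07, where 11.6% of all genes rose and 14% fell. Slc2a6, a carrier gene known to be induced in inflammatory macrophages, rose by 4.16 ± 0.55 (SE; adjusted p = 0.0177), with 4.79 in KO and 3.52 in WT cells. Slc16a7, the gene of the lactate carrier MCT2, fell by 1.40 (adjusted p = 0.0150), Slc2a8 by 1.40 (adjusted p = 0.0275), and Slc2a4, which encodes the insulin-responsive GLUT4, was at least 1.45-fold lower because it was not well above background on either M1 array (adjusted p = 0.0286). Slc2a3 (-0.90 ± 0.40) and the MCT1 gene Slc16a1 (-0.13 ± 0.28) did not pass. With normexp correction 0 of the 10 fell.

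Of 15 tested HIF pathway genes 2 rose and 1 fell in M1 against M0, with a median of 0.31. These shares are close to or below the 11.6% and 14% of all genes. Epas1, which encodes the sister subunit HIF-2 alpha, stood at 1.70, -2.05 and 2.50 in KO M0, M1 and M2 cells and at 1.12, -2.48 and 1.86 in WT cells. Both M1 arrays lay far below the other 4, and the fall of 3.67 ± 0.16 (SE; adjusted p = 0.00682) was opposite to the rise of Hif1a. Egln3, a prolyl hydroxylase gene whose product marks HIF alpha proteins for breakdown and which HIF is known to induce, rose by 3.36 ± 0.37 (adjusted p = 0.0132), with both M1 arrays above the other 4. Cul2, part of the VHL ubiquitin ligase that breaks HIF alpha down, rose by 1.19 ± 0.19 (adjusted p = 0.0239). With normexp correction the last 2 calls ended. The HIF-1 partner gene Arnt differed by -0.30 ± 0.20 (adjusted p = 0.344).

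Of 26 tested HIF target genes outside glycolysis 9 rose and 3 fell in M1 against M0, against 11.6% and 14% of all genes, with a median of 0.68 that does not depend on the size given to Nos2. The inducible nitric oxide synthase gene Nos2, also an interferon-gamma and LPS target, was at least 694-fold higher in M1 (adjusted p = 0.00584, limma). The mitophagy gene Bnip3 rose by 2.85 ± 0.31 (SE), Ankrd37 by 2.34 ± 0.22, the adenylate kinase gene Ak4 by 2.26 ± 0.27 and Ero1l, for protein folding, by 2.18 ± 0.26, at adjusted p from 0.0105 to 0.0150. The chemokine receptor gene Cxcr4 fell by 4.15 ± 0.26 (adjusted p = 0.00715), with levels of 1.33, -2.50 and 0.58 in KO M0, M1 and M2 cells and 1.47, -3.00 and -0.07 in WT cells. The transferrin receptor gene Tfrc fell by 2.11 ± 0.18 (adjusted p = 0.00977), and Mxi1, named after its value was seen, by 1.33 ± 0.21 (adjusted p = 0.0243). With normexp correction 5 of the 26 rose and 2 fell. The classical targets Vegfa (0.31 ± 0.16), Pdk1 (0.08 ± 0.35) and Adm (0.55 ± 0.83), likewise named after their values were seen, did not pass in M1 against M0. The Adm mean joins opposite signs, 2.12 in KO and -1.02 in WT cells, each 1 array against 1 array. Set against M2 instead, Vegfa was higher in M1 by 2.01 (adjusted p = 0.00735, limma), while Pdk1 and Adm did not pass there either.

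In the branches next to glycolysis the counts are again set against the 11.6% of all genes that rose and the 14% that fell. Of 9 tested pentose phosphate genes 2 rose and 0 fell, G6pdx, the entry enzyme gene (1.12 ± 0.16, SE; adjusted p = 0.0198), and Rpe (0.90 ± 0.19; adjusted p = 0.0423). The G6pdx call ended with quantile normalization and with the authors' deposited table, and the Rpe call with normexp correction and with no filter on dim probes. Of 12 genes for pyruvate entry into mitochondria 1 rose and 1 fell. Pdk3, a kinase gene whose product shuts pyruvate dehydrogenase, rose by 1.44 ± 0.18 (adjusted p = 0.0165), and its relative Pdk4 fell by 2.65 ± 0.37 (adjusted p = 0.0193). Of 14 regulators of glucose metabolism 1 rose and 1 fell. Myc fell by 4.02 ± 0.42 (adjusted p = 0.0121), and Ppargc1b, a coactivator of mitochondrial genes, rose by 1.62 ± 0.34 (adjusted p = 0.0419, a call that ended in 3 of 10 alternative settings). Myc stood at 0.06, -3.62 and 1.06 in KO M0, M1 and M2 cells and at 0.29, -4.06 and 2.17 in WT cells, lowest on the M1 arrays. In M2 against M0 and in KO against WT limma called 0 genes of these lists. As for all genes, each M1 call ended without any 1 of the M0 or M1 arrays.

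**Figure D5:**
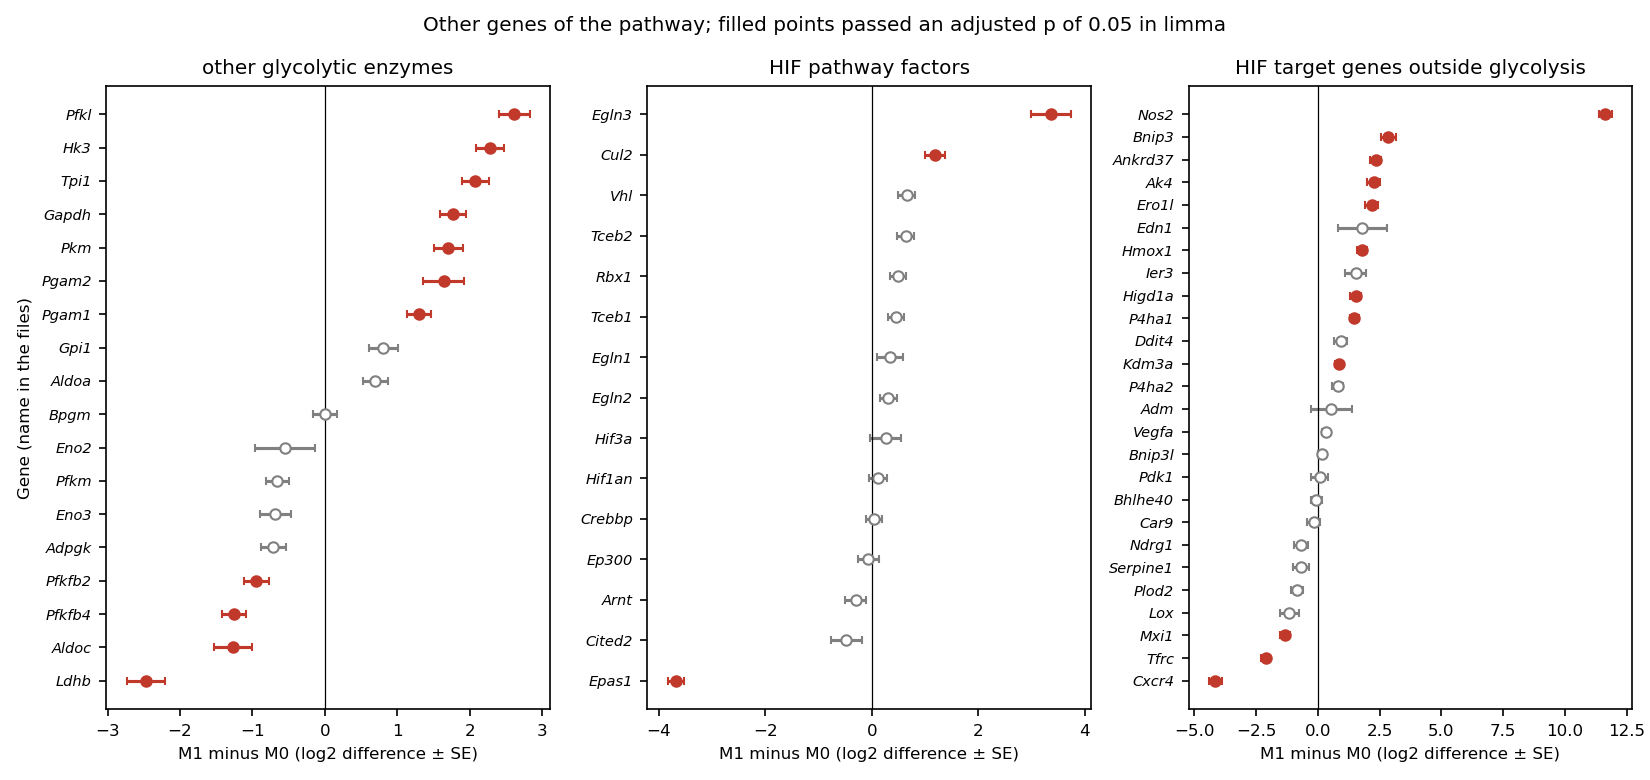
Mean M1 minus M0 difference with its SE (x axes, log2, each panel with its own range) for other glycolytic enzymes, HIF pathway factors and HIF targets outside glycolysis; filled points passed an adjusted p of 0.05 in limma. Genes such as Pfkl and Egln3 lie right of 0 and Ldhb, Epas1 and Cxcr4 left of it; the point of Nos2 is its fitted value, for which at least 694-fold is the bound.

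Across the 6 arrays the 10 genes kept a like but not identical pattern. Over their 45 pairs the Pearson r, a description over 6 arrays that share the same M1 cells, had a median of 0.851, a lowest value of -0.02 and a highest value of 0.993. Pgk1 followed the mean of the 10 most closely (0.988) and Pfkp least (0.435), where that mean includes the gene compared. The span from the lowest to the highest array was 4.41 for Pfkfb3 and 4.07 for Slc16a3, against 1.46 for Ldha and 1.48 for Hif1a. KO M1 was the highest array for 8 genes and WT M1 for Hif1a and Pfkfb3. The share of all genes highest on KO M1 was not counted, while 62.1% of all genes were higher in KO M1 than in WT M1. For Pfkp KO M1 was the highest array on the brightest probe only, and its other probes were highest on WT M2. Among 15723 genes outside the lists and well above background on all arrays, 911 had an r of at least 0.95 with the mean of the 10. The 5 highest were NAP000003-006, Akap7, Git1, Psmg3 and Cox11, each with an r of at least 0.998. For Hif1a alone 554 genes reached 0.95, and the highest were Ppig (0.997), Tmem161a (0.995), Mea1, H60a and Gtpbp8 (0.994 each).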

How the data were processed

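RNA of 6 macrophage samples was hybridised to 1-colour Agilent arrays (design 014868), 1 array for each genotype and state. Intensities are the processed signals of Agilent Feature Extraction 10.7.3.1, background-subtracted per the file headers, and coordinates are mm9. The deposited log2 table of the authors, with a normalization that no label or header states, served as an alternative. Each of its columns had r of at least 0.99886 with its own array and at most 0.990 with any other, and column medians were 5.39 to 5.41.

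Control spots were left out and replicate spots averaged. A value on every array was had by 41137 of 41174 probes. Values are log2 signal minus the array's 75th percentile. No spot was saturated, and 79 to 164 of 43379 spots per array carried an outlier flag. The brightest probe stood for a gene, and genes were tested if 2 or more of the 6 arrays had them well above background. limma 3.58.1 in R 4.3.3 fitted additive effects of state and genotype with 2 residual degrees of freedom, eBayes and Benjamini-Hochberg adjustment over 19044 genes, at an adjusted p under 0.05, and was tested on simulated data. The p-values measure the departure of these arrays from additive effects, which may be technical. It also takes in any state response that differs between the genotypes. The precision is limited by the number of arrays.

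Text names the 10 genes, other list genes past the threshold (at most 6 a list, by size of difference) with preset paralogues, and the 5 genes of most like pattern. Members and lists were chosen with earlier results of these data known. Alternatives were normexp (offset 50), quantile, median centring, the authors' table, both filters, the mean of probes, slide as a block, an intensity trend, a fit with no other-factor term and each array left out. Promoters are from RefSeq (GRCm38.p6), which is not the build of the probe coordinates.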

Additional observations from a re-analysis of the deposited data

Results flagged for a closer look

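Several genes moved opposite ways in the 2 genotypes or in the 3 states, and none of these differences was tested, since each value compares 1 array with 1 array. The M2 minus M0 difference of Hk1 was -0.32 in KO and 0.20 in WT cells. The KO minus WT difference of Hif1a was -0.38 in M1 cells, but 0.093 in M0 and 0.12 in M2. That of Hk1 was -0.32 in M2 cells, but 0.20 in M0 and 0.39 in M1. Hk2 had -0.35 in M0 cells, 0.11 in M1 cells and 0.031 in M2 cells, and Eno1 had -0.30, 0.17 and -0.043 in the same order. Pgk1 had 0.17 and 0.42 in M0 and M1 cells but -0.15 in M2 cells. All these values are under 2-fold.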

How the results depend on the processing

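No paired analysis was possible because the labels give no replicate numbers to pair by, though the state comparisons were made within genotype and the slide was tried as a block. For the 10 genes in M1 against M0, 9 passed, against 0 to 8 with 1 array left out, and 7 rather than 9 were at least 2-fold higher without WT M0 and KO M1. In M2 against M0 0 passed, against 3 higher and 1 lower with an intensity trend. In M1 against M2 7 passed, against 3 with normexp and 0 to 7 with 1 array left out. At least 2-fold in M1 for KO minus WT was 1 gene, 2 with normexp and 0 with the mean of probes, and in WT M2 minus M0 2 genes, 1 with quantile, median centring or the authors' deposited table.

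Over all genes, M1 against M0 called 4873, 1283 with normexp and 0 to 5444 with 1 array left out. M1 against M2 called 4831, 1346 with normexp, 2229 with the slide as a block and 0 to 4795 with 1 array left out. M2 against M0 called 16, but 147 with quantile, 478 with median centring, 153 with the authors' deposited table, 275 for genes above background on all 6 arrays, 1083 with an intensity trend, 148 with no genotype term, and 0 with normexp, no filter, the slide as a block or 1 array left out. KO against WT called 0, and 32 with an intensity trend. The causes were not tested.

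Signs also turned, for differences that did not pass. In M2 against M0 Hif1a was 0.053 with normexp, 0.065 with the slide and -0.20 to 0.065 with 1 array left out, and Hk1 0.13 with normexp, 0.092 with the mean of probes and -0.37 to 0.24 with 1 array left out. Pfkp in M1 against M2 ranged from -0.95 to 0.10 (without WT M1). In KO against WT, with the slide and with 1 array left out, Hif1a was 0.12 and -0.14 to 0.11, Hk1 -0.32 and -0.058 to 0.30 (-0.026 with normexp), and Hk2 0.031 and -0.16 to 0.073. Pgk1 was -0.15 with the slide, and Eno1 -0.17 to 0.063 with 1 array left out.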
